A study of Mus musculus with 4 samples.

Results

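The 10 genes described here encode enzymes of glycolysis and of the branch point that follows it: Hk1 and Hk2 (hexokinases), Gpi1 (glucose-6-phosphate isomerase), Pfkl (liver phosphofructokinase), Aldoa (aldolase A), Gapdh (glyceraldehyde-3-phosphate dehydrogenase), Pgk1 (phosphoglycerate kinase), Eno1 (enolase), Ldha (lactate dehydrogenase A) and Pdk1 (pyruvate dehydrogenase kinase). They were chosen by name, and a probe was taken as a member when the transcript it was designed on belongs to one of these genes. In this way 23 probes were found, for 10 of 10 genes, among 56605 probes and 18205 genes tested. Their RNA was measured on single-colour oligonucleotide arrays in livers of fetuses at E14.5, labelled female, from C57BL/6J dams. The dams ate during gestation either a control diet (CD, with 4.3% of the energy from fat, 19.2% from protein and 67.3% from carbohydrate as stated for it) or a high-fat diet (HFD, 60% fat, 20% protein and 20% carbohydrate). There were 2 arrays per diet, named here CD1, CD2, HFD1 and HFD2, and no genotype or treatment other than the diet differed between the groups by the labels. How many fetuses or dams stood behind an array was not given in the sources used here, so the p-values measure the spread between these arrays.

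Glycolysis splits glucose into pyruvate and yields ATP without oxygen. Lactate dehydrogenase then turns pyruvate into lactate and restores the NAD+ that the pathway uses. Pyruvate dehydrogenase instead commits pyruvate to oxidation within the mitochondria unless Pdk1 phosphorylates and inhibits this enzyme. When oxygen falls, the transcription factor HIF-1 is stabilised, and most of these genes are classic targets that it induces through a short core motif (ACGTG or GCGTG) near their start sites. In the fetus the liver is the site where red cells form, so erythroid cells, which depend on glycolysis, share the organ with hepatoblasts, the precursors of hepatocytes.

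No member passed the test for a difference between the diets. With the brightest probe taken as the value of each gene, 0 of 10 members had a limma adjusted p under 0.05, beside 0% of the 18205 genes tested, and the p of each, adjusted over the 41332 probes tested, was 1.00. At an unadjusted p under 0.05 the count by limma was again 0 of 10, beside 2.85% (518) of all genes, and the methods' t-test called 1 (Pdk1), beside 6.23% of all genes. The 4 arrays did order by diet for some members: both HFD arrays lay above both CD arrays for Hk2, Pfkl, Pgk1 and Pdk1 (4 of 10), which also held for 23% of all genes. The opposite order was found for 0 of 10 members and for 10.1% of all genes. Of the 10 differences, 8 were above 0 and 2 (Hk1 and Eno1) below, with a median of 0.14 on the log2 scale, beside a median of 0.04 over all genes. The size that these arrays could show was limited: the 95% intervals of the 10 members reached from 0.573-fold to 1.75-fold, and 2 arrays against 2 cannot give an exact two-sided permutation p below 0.333. These are whole livers, so fewer cells of a type and less RNA per cell cannot be told apart.

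On each of the 4 arrays all 23 member probes were well above background, and none was saturated. Over the whole array, 65.4% to 70.0% of spots were well above background and the median intensity was 70.2 on CD2 against 97.0 to 120 on the other arrays. All 4 lay on 1 slide in 1 scan. The SD of the difference between arrays over all probes was largest for CD1 and CD2 (0.58) and smallest for HFD1 and HFD2 (0.34), with 0.42 to 0.50 between arrays of different diets. Markers of liver were present: each array showed 12 of 12 hepatoblast markers (among them Serpina1a, Alb and Afp) and 11 of 11 erythroid markers (among them Hba-a1, Hbb-y and Slc4a1) well above background. This measure did not single out liver, since 10 of 10 markers of neurons, of skeletal muscle and of endothelium, 9 of 9 of gonad and adrenal and 9 of 10 of kidney (all but Umod) were also well above background on each array. Relative to the 75th percentile of each array, the summed level of the hepatoblast markers was 1795 on CD1 and 2753 on CD2, with both HFD arrays between them (2154 and 2191). That of the erythroid markers was 1411 and 1545 in CD, below 1556 and 1786 in HFD, but the median of the levels centred per gene was -0.28 and 0.13 in CD and 0.07 and 0.13 in HFD, so that the arrays did not order by diet. Of 11 trophoblast markers, 10 were well above background on each array, and their summed level was 97.2 and 116 in CD against 78.5 and 94.0 in HFD. For the trophoblast markers the median of the levels centred per gene was 0.46 and 0.41 in CD, above -0.51 and -0.003 in HFD. Tpbpa, Prl3b1 and Prl8a9 were removed by the filters and were not tested. For each of them both HFD arrays lay below both CD arrays. On the log2 scale, Prl8a9 was at 0.45 and 2.28 in CD against -1.80 and -4.32 in HFD. Of the 8 trophoblast markers tested, 2 were higher and 6 lower in HFD (median -0.23), and 1 had an unadjusted limma p under 0.05. Over the tested markers only, the list medians farthest from 0 were those of gonad and adrenal and of neurons. For gonad and adrenal 6 of 8 were higher (median 0.82, 4 with an unadjusted limma p under 0.05). For neurons 9 of 10 were lower (median -0.58, 3 with an unadjusted limma p under 0.05). The part of these cell types in the values of the 10 genes was not tested.

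The promoter windows of the members show how far these genes share the letters that HIF-1 binds. RefSeq (GRCm38.p6) lists 17 windows for the 10 genes, each running from 250 bases before a transcription start to 50 after it. Both strands were searched for ACGTG (read as CACGT on the other strand) and for GCGTG (read there as CACGC). The palindrome CACGTG counts on both strands. ACGTG was found in 7 of 17 windows (41.2%) and 6 of 10 genes, beside 19.6% of all 32851 windows. For GCGTG the counts were 9 of 17 windows (52.9%) and 6 of 10 genes, beside 32.4% of all windows. Either was found in 13 of 17 windows (76.5%), beside 43.8% of all windows. By gene, it was in at least 1 window of every member except Gpi1, and some members have more than 1 window. The stretches below lie before the start and were picked to show the genes with ACGTG on that side, one window each of Gapdh and Eno1, and the single such stretch of Pdk1. Each is written 5′ to 3′ on the strand of the gene, with the motif letters in capitals.

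Hk2, chr6:82774490-82774518, minus strand: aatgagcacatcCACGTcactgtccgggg

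Aldoa, chr7:126799364-126799392, minus strand: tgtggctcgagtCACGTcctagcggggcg

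Gapdh, chr6:125165801-125165839, minus strand: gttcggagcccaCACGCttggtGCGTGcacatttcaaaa

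Pgk1, chrX:106186938-106186985, plus strand: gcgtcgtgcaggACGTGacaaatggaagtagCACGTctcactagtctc

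Eno1, chr4:150237099-150237151, plus strand: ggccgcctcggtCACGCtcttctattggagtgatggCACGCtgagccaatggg

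Ldha, distal, chr7:46845647-46845676, plus strand: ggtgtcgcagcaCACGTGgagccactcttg

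Ldha, proximal, chr7:46845744-46845786, plus strand: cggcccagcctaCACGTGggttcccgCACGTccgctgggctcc

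Pdk1, chr2:71873134-71873162, plus strand: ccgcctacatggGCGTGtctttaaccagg

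Ldha carried the most ACGTG matches (5 in 1 window, of which 4 come from its pair of CACGTG palindromes). Pgk1 carried 2 within a stretch of 48 bases that ends 115 bases before the start. The stretches of Aldoa and Eno1 each fall into a pair of overlapping windows, since these genes have neighbouring starts. The same letters are therefore counted in both windows of a pair in the counts and percentages above. A match is a description of letters in these windows and not a measured binding site.

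**Figure D1:**
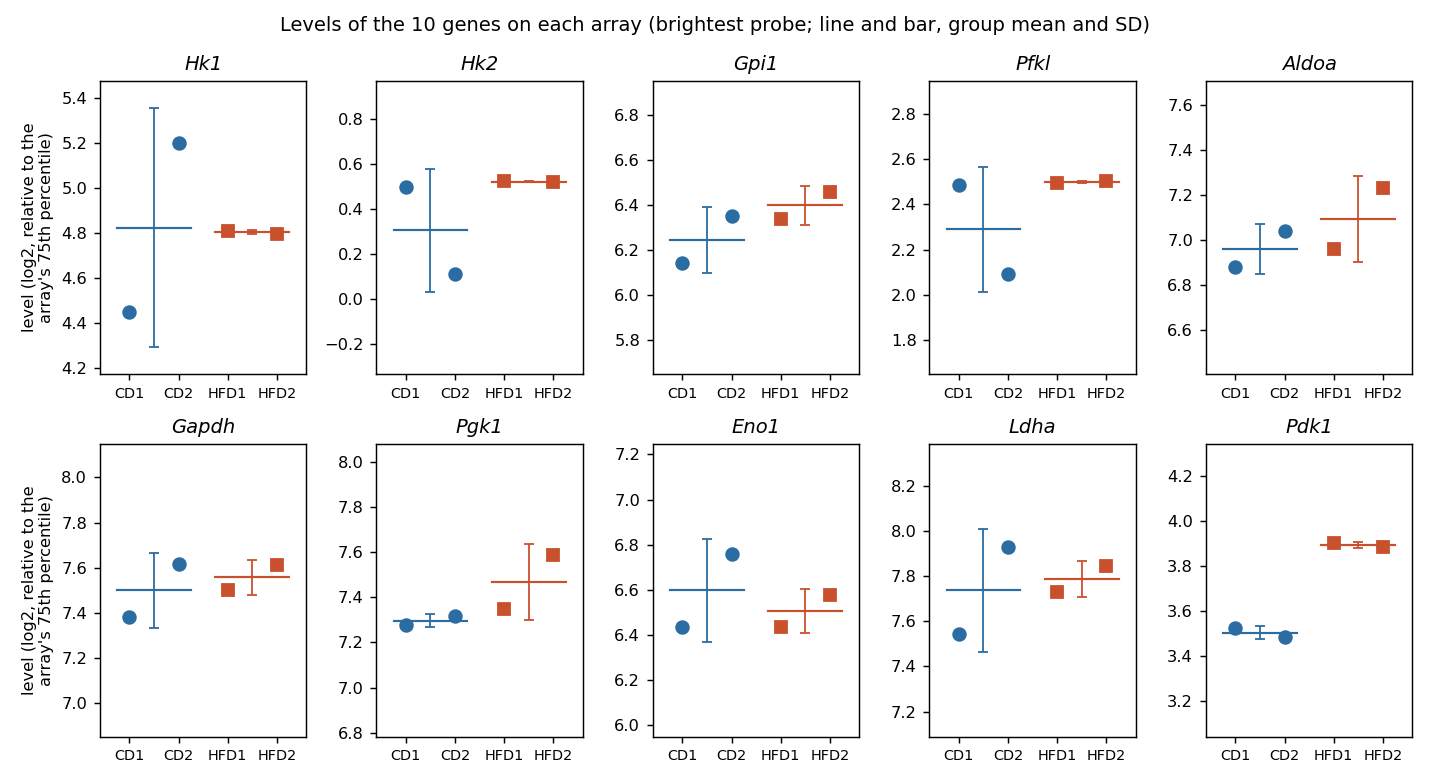
Level of the brightest probe of each of the 10 genes on the arrays CD1, CD2 (blue circles), HFD1 and HFD2 (orange squares), as log2 intensity relative to the 75th percentile of the array, with the group mean (line) and SD (bar, n = 2); every panel spans the same range. Hk1 differs most between the CD arrays (4.45 and 5.20), and Pdk1 shows the clearest order by diet (3.52 and 3.48 against 3.90 and 3.88).

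The hexokinases trap glucose in the cell as glucose-6-phosphate. Levels are given from here on as log2 intensity relative to the 75th percentile of the array, and levels of different probes are not set against each other. Hk1, the broadly expressed form, was at 4.45 on CD1, 5.20 on CD2, 4.81 on HFD1 and 4.80 on HFD2. Both HFD arrays thus lay between the CD arrays, and the CD arrays were farther apart than for any other member. The difference (HFD minus CD) was -0.02 ± 0.29 (SE), with a 95% interval from -0.80 to 0.76. Its sign and size rested on the CD arrays: it was -0.39 without CD1 and 0.35 without CD2.

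A further Hk1 probe, A_55_P2647528, gave another picture. It was designed on the transcript NM_010438, whereas the brightest probe was designed on NM_001146100. It was at -4.37 and -4.28 in CD against -3.75 and -3.66 in HFD, so that the groups did not overlap. The difference was 0.62 ± 0.16 (SE), or 1.54-fold with a 95% interval from 1.14 to 2.08 (limma adjusted p = 1.00). It was the only one of the 23 member probes with an unadjusted p under 0.05, beside 1383 of the 41332 probes tested, and it did not pass adjustment. The probe was dim, with intensities of 51.8 and 36.3 in CD against 72.0 and 72.1 in HFD, though well above background on each. The Hk1 probes therefore disagreed, and the mean over both gave 0.30.

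Hk2, the hexokinase that is high in muscle, adipose tissue and many tumours, was at 0.50 on CD1, 0.11 on CD2 and 0.52 on both HFD arrays. The HFD arrays lay just above CD1 and farther above CD2. The difference was 0.22 ± 0.20 (SE; 95% interval -0.32 to 0.76). It was 0.41 without CD1 and 0.02 without CD2, so CD2 set most of its size.

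Gpi1 converts glucose-6-phosphate to fructose-6-phosphate. Its levels were 6.14, 6.35, 6.34 and 6.46 on CD1, CD2, HFD1 and HFD2, and the groups overlapped. The brightest of its 3 probes gave a difference of 0.15 ± 0.18 (SE; 95% interval -0.32 to 0.62). The other probes gave 0.08 and -0.17, which differ in sign.

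Pfkl, the liver form of the enzyme at the committed step of glycolysis, was at 2.49 on CD1, 2.09 on CD2 and 2.50 on both HFD arrays. As for Hk2, CD1 was close to the HFD arrays and CD2 stood below. The difference was 0.21 ± 0.21 (SE; 95% interval -0.33 to 0.75). It was 0.41 without CD1 and 0.01 without CD2.

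Aldoa splits fructose-1,6-bisphosphate into a pair of triose phosphates. It was at 6.88 and 7.04 in CD and at 6.96 and 7.23 in HFD, with HFD1 between the CD arrays. The difference was 0.13 ± 0.19 (SE; 95% interval -0.37 to 0.63). It was -0.0014 without HFD2, the array that held the highest level.

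Gapdh, which oxidises glyceraldehyde-3-phosphate and is often used as a reference gene, had 6 probes. The brightest was at 7.38, 7.62, 7.50 and 7.61 on CD1, CD2, HFD1 and HFD2, with both HFD arrays inside the range of the CD arrays. The difference was 0.06 ± 0.18 (SE; 95% interval -0.42 to 0.53). The differences of the probes ran from -0.01 to 0.17. On the highest (A_55_P2088912) both HFD arrays lay above both CD arrays, whereas the groups overlapped on the others. Gapdh has many processed pseudogenes, so these probes may read more than 1 locus.

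Pgk1, the first step that yields ATP, was at 7.28 and 7.32 in CD and at 7.35 and 7.59 in HFD. The groups did not overlap, though HFD1 lay close to the CD arrays. The difference was 0.17 ± 0.18 (SE; 95% interval -0.30 to 0.64). Without HFD2 it was 0.05, and without HFD1 it was 0.29.

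Eno1, which forms phosphoenolpyruvate, was at 6.44 and 6.76 in CD and at 6.44 and 6.58 in HFD. Here CD2 held the highest level and CD1 matched HFD1. The difference was -0.09 ± 0.20 (SE; 95% interval -0.61 to 0.43). A second probe gave 0.19 ± 0.19, on the other side of 0. Eno1 has near-identical copies in the mouse genome, so its brightest probe is uncertain.

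Ldha makes lactate from pyruvate and carried the most ACGTG letters in its promoter window. It was at 7.55 on CD1, 7.93 on CD2, 7.73 on HFD1 and 7.84 on HFD2, with both HFD arrays between the CD arrays. The brighter probe gave a difference of 0.05 ± 0.21 (SE; 95% interval -0.50 to 0.60). The other probe gave -0.17 ± 0.23. Without CD1 the brighter probe gave -0.14 and without CD2 0.24.

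Pdk1 does not catalyse a glycolytic step but inhibits pyruvate dehydrogenase, which keeps pyruvate from oxidation in the mitochondria. Its brightest probe was at 3.52 and 3.48 in CD and at 3.90 and 3.88 in HFD. The arrays of each diet lay close together and the groups did not overlap. The difference was 0.39 ± 0.16 (SE), or 1.31-fold with a 95% interval from 0.978 to 1.75 (limma adjusted p = 1.00), the largest difference and the lowest unadjusted p of the 10 genes. It stayed between 0.37 and 0.41 when any 1 array was left out. The other 3 Pdk1 probes did not show it: their differences were 0.02, -0.03 and -0.10, and on each of them both HFD arrays lay between the CD arrays. The mean over all 4 probes was 0.07. All 4 probes were designed on the same transcript.

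**Figure D2:**
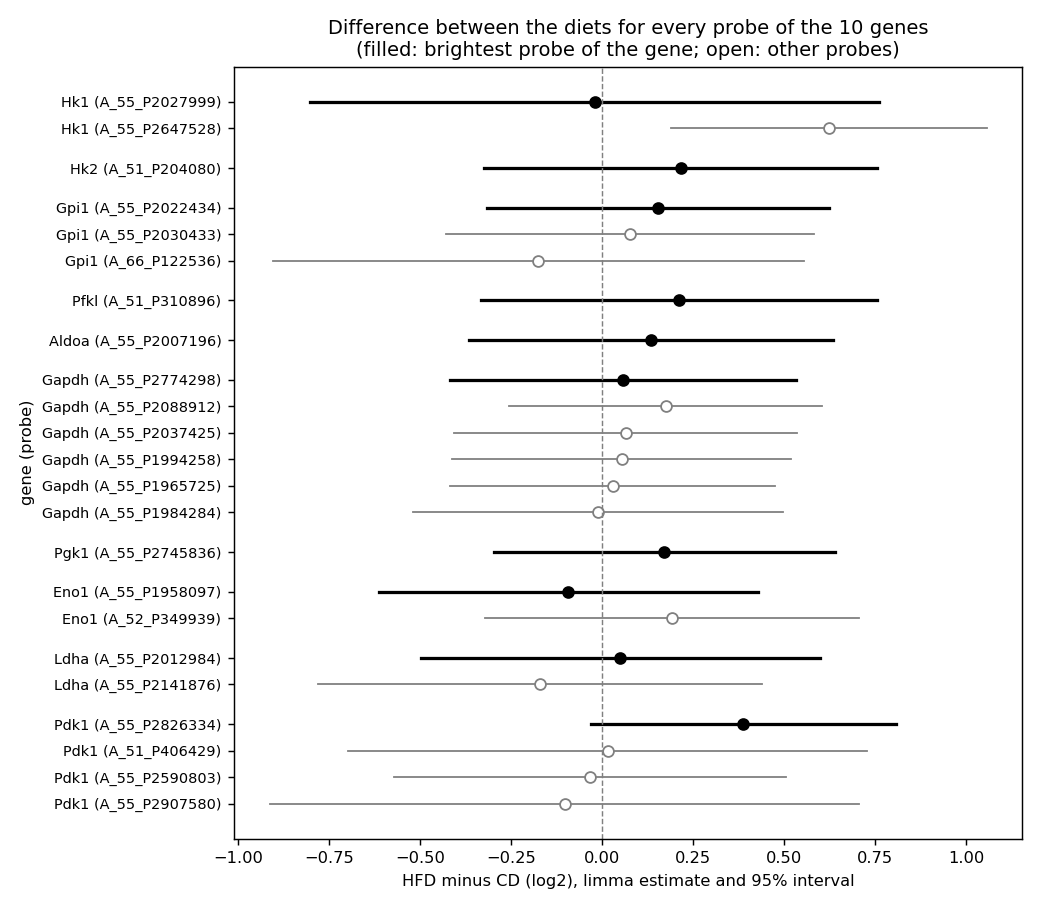
Difference between the diets (HFD minus CD, log2; limma estimate and 95% interval) for all 23 probes of the 10 genes, with the brightest probe of each gene filled and the others open. The interval leaves 0 out only for the dim Hk1 probe (0.19 to 1.06), and the brightest Pdk1 probe (-0.03 to 0.81) is apart from the other 3 Pdk1 probes.

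For most members the arrays of the control diet differed more from each other than the diets did. The gap between CD1 and CD2 was larger than the difference between the diets for 8 of 10 members, the exceptions being Pgk1 and Pdk1, and for 71.7% of all genes tested. The median size of the gap was 0.28 between the CD arrays and 0.11 between the HFD arrays, beside 0.32 and 0.10 over all genes. CD2 was above CD1 for 7 of 10 members, the others being Hk2, Pfkl and Pdk1, and for 55.5% of all genes. The median of CD2 minus CD1 was 0.18 over the members, 0.41 over the 12 reference genes and 0.06 over all genes. Both HFD arrays lay between the CD arrays for 3 of 10 members (Hk1, Gapdh and Ldha) by the brightest probe, beside 39.8% of all genes. Over probes this held for 13 of the 23 of the members, beside 39.2% of all probes tested. The 23 include 6 of Gapdh and 4 of Pdk1, so they are not independent.

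**Figure D3:**
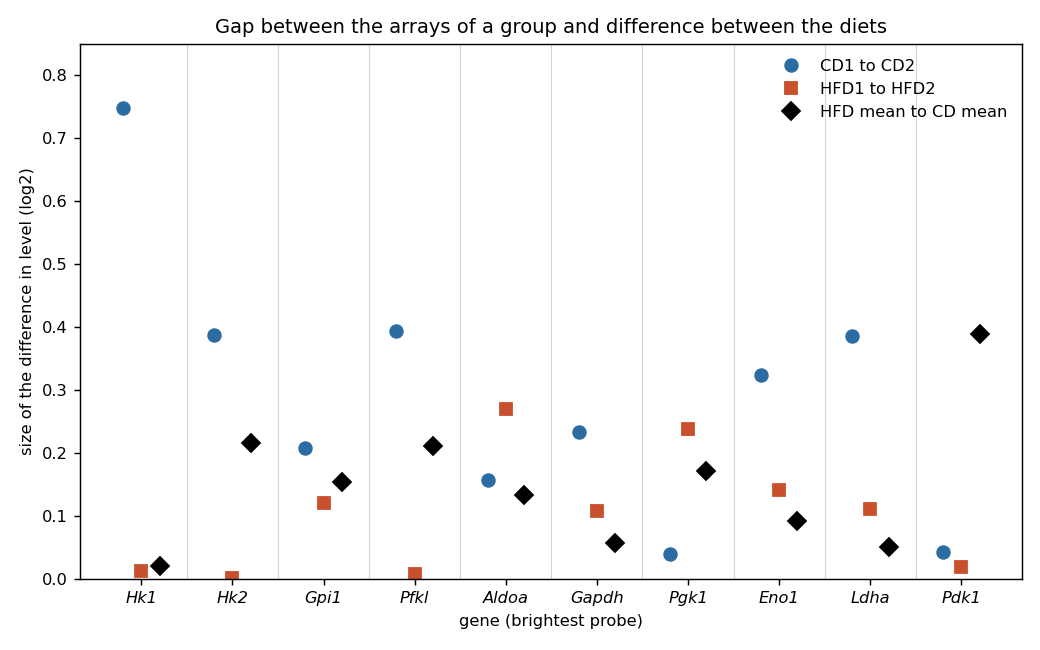
Size of the gap in level (log2) between CD1 and CD2 (blue circles), between HFD1 and HFD2 (orange squares) and between the means of the diets (black diamonds) for the brightest probe of each gene. The diet difference exceeds the gap between the CD arrays for Pgk1 and Pdk1, and both within-group gaps for Pdk1 alone.

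The choice of arrays decided which members reached an unadjusted p under 0.05. Without CD1, 4 members did (Hk1, lower in HFD, and Hk2, Pfkl and Pdk1, higher), as did 17.3% of all genes. Without CD2 the members were Hk1, now higher in HFD, and Pdk1, beside 15.1% of all genes. Without HFD1 or HFD2 there were 0 by limma, beside 2.18% and 1.88% of all genes. A fit without 1 array of a group assumes that the lone array varies like the pair of the other group. The smallest adjusted p of any member in these fits was 0.226. The median difference over the members was 0.05 without CD1, 0.20 without CD2, 0.21 without HFD1 and 0.03 without HFD2.

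**Figure D4:**
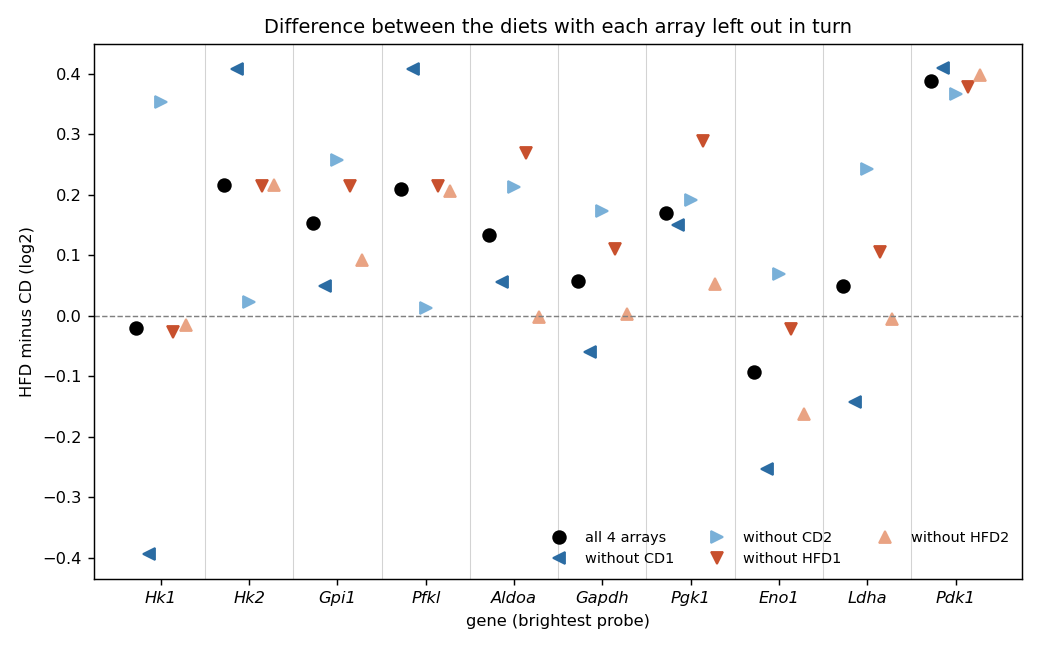
Difference between the diets (HFD minus CD, log2) for the brightest probe of each gene with all 4 arrays (black) and with 1 array left out (triangles). The estimate of Pdk1 stays between 0.37 and 0.41, whereas that of Hk1 runs from -0.39 without CD1 to 0.35 without CD2.

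The genes around the members were taken from hand-written lists of 88 genes in all, and 0 of 88 had an unadjusted limma p under 0.05, beside 2.85% of all genes. The methods' t-test gave 3 of 88, beside 6.23% of all genes. Among 16 isozymes of the members (such as Hk3 or Ldhb), 7 differences were above 0 and 9 below, with a median of -0.02. The highest among those well above background were Hkdc1 (0.27 ± 0.19 SE) and Aldoc (0.08 ± 0.17), and Eno2, the neuronal enolase, lay below 0 (-0.26 ± 0.32). Pdk2, Pdk3 and Pdk4, the kinases related to Pdk1, gave -0.07, 0.005 and -0.04.

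The 6 genes of the remaining steps lay mostly below 0 (1 above, 5 below, median -0.06). Bpgm, the red-cell enzyme that makes 2,3-bisphosphoglycerate, was highest (0.22 ± 0.23 SE) and the pyruvate kinase gene Pkm lowest (-0.14 ± 0.18). Tpi1, the triose phosphate isomerase, gave -0.04, and the muscle mutase Pgam2 -0.12. Both HFD arrays lay above both CD arrays for 0 of these 6 genes.

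Regulators of glycolysis and transporters numbered 12, of which 10 were above 0, with a median of 0.14 that equals that of the members after rounding. Both HFD arrays lay above both CD arrays for 6 of 12, beside 23% of all genes. Slc2a1, the glucose transporter GLUT1, was at 5.83 and 5.99 in CD and at 6.20 and 6.48 in HFD, a difference of 0.42 ± 0.19 (SE). Slc16a1, the monocarboxylate transporter MCT1, was at 3.78 and 3.89 against 4.22 and 4.17, a difference of 0.36 ± 0.16. The glucose transporters Slc2a2 and Slc2a3 were lowest, at -0.17 ± 0.42 and -0.11 ± 0.25.

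The genes of pyruvate dehydrogenase, the complex that Pdk1 inhibits, and of its regulators had 6 of 8 differences above 0 (median 0.09). The phosphatase genes Pdp1 and Pdp2, whose products oppose Pdk1, lay at the ends of this list, with -0.30 ± 0.16 (SE) and 0.26 ± 0.17. Among the genes of the complex itself, Pdha1 gave -0.14 ± 0.27 and Pdhb 0.19 ± 0.17.

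Genes of gluconeogenesis, the reverse path, had 6 of 8 differences above 0 (median 0.15), and both HFD arrays lay above both CD arrays for 4 of 8, beside 23% of all genes. Pck1, which commits carbon to glucose, was at -3.97 and -3.22 in CD and at -3.10 and -2.56 in HFD, a difference of 0.77 ± 0.35 (SE). The glucose-6-phosphate transporter Slc37a4 gave 0.33 ± 0.17, and the lowest among genes well above background were Pck2 (-0.12 ± 0.27) and G6pc3 (0.06 ± 0.17).

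Other targets of HIF-1 gave 18 of 26 differences above 0 with a median of 0.13. Both HFD arrays lay above both CD arrays for 8 of 26 and below for 3 of 26 (30.8% and 11.5%), near the 23% and 10.1% of all genes. Hmox1, the heme oxygenase, and Bnip3l, which clears mitochondria from maturing red cells, were highest (0.41 ± 0.18 and 0.38 ± 0.18 SE). The carbonic anhydrase Car12 gave -0.27 ± 0.19. Vegfa, a standard marker of hypoxia, gave -0.14 ± 0.16 with both HFD arrays below both CD arrays. The 12 reference genes had a median of 0.06, with 9 above 0 and 3 below, and both HFD arrays lay above both CD arrays for 1 of them (Sdha). Over all 18205 genes, 10488 differences were above 0 and 7717 below.

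**Figure D5:**
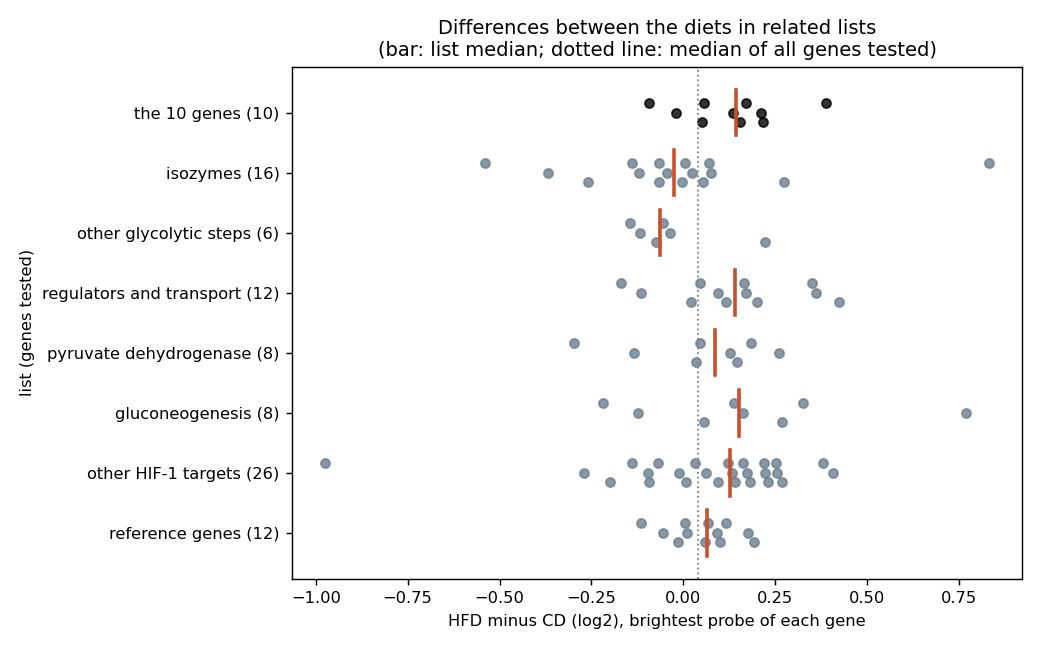
Difference between the diets (HFD minus CD, log2; brightest probe) for the 10 genes and for each related list, with 1 point per gene, the list median (orange bar) and the median of all genes tested (dotted line, 0.04). The medians of the lists run from -0.06 (other glycolytic steps) to 0.15 (gluconeogenesis), and that of the 10 genes is 0.14.

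The count of members above 0 was 8 of 10 with scaling to the 75th percentile, to the median, by quantiles or in the authors' normalized table, 9 of 10 after normexp background correction and 6 of 10 with scaling to Gapdh, which shifts all genes of an array alike, holds Gapdh near 0 by construction and moved the median of all genes from 0.04 to -0.02. The median over the members was 0.06 with quantile normalization and 0.08 with scaling to Gapdh. Hk2, Gpi1, Pfkl, Pgk1 and Pdk1 were above 0 under each of the 18 alternatives run, with lowest values from 0.01 (Pfkl) to 0.07 (Pdk1). Alternatives that changed only the filters, the signal floor, the test or the block left these estimates unchanged, so no sign could turn there.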

How the data were processed

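RNA of fetal livers was measured on 4 single-colour arrays, grouped by the sample labels. Per the file headers, the authors read the scans with Agilent Feature Extraction 11.0.1.1 and deposited for each spot a background-subtracted intensity, not scaled between arrays, together with flags, scores that are 0 or 1. A deposited table of the authors' normalized signal covers 41471 probes and equals the intensity divided by 1 constant per array (702 to 1068; within 0.1% for 100% of probes with 1 spot). Here the log2 intensity of the spots of a probe was averaged without outlier spots, and the 75th percentile of the array was subtracted. Following the study's methods, a probe under the 20th percentile of any array was removed. A CV over 50% under both diets also removed a probe. That CV was of the unlogged signal, whereas the study's methods speak of a log-scale value, and the CV of the log2 signal was run as an alternative. These filters kept 41332 of 56605 probes. Probes were named through RefSeq transcripts (32994 with 1 symbol), and the brightest tested probe stood for a gene. The comparison (HFD minus CD) used lmFit and eBayes of limma 3.58.1 (R 4.3.3), without covariates, with Benjamini-Hochberg adjustment over all tested probes. The fit was tested on simulated data. The array number limits the precision. Named were all probes of the members and, in each list, the 2 highest and 2 lowest genes well above background, and further genes (the related kinases, isozyme examples, Vegfa and Sdha) were named after their values were seen. Some genes that this rule names are not reported here. Members and lists were chosen with earlier results of these data known. The array was designed on another build, so probes and genes have no coordinates, and those of the promoter stretches are RefSeq's on GRCm38.p6. Alternatives were tried for background, scaling, filters, test, block and each array left out.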

Additional observations from a re-analysis of the deposited data

How the results depend on the processing

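No member passed adjustment under any of the 18 alternatives, and the smallest adjusted p was 0.226. The replicate numbers did not pair the arrays (correlation of deviations of same-numbered arrays -0.10). With the replicate block 0 members and 3 other pathway genes had an unadjusted limma p under 0.05, beside 3.15% of all genes. The median over the members was then 0.14. The count of other pathway genes at that cutoff was 0 of 88 with limma in the main fit. It was 5 with normexp (beside 1.92% of all genes) and 3 with the methods' t-test (beside 6.23%). It was 2 with Welch's correction (beside 3.08%) and 1 with scaling to Gapdh (beside 2.54%), an alternative chosen after seeing the data. With CD1 or CD2 left out it was higher than in any of these, as was the share of all genes, and those counts are not reported here. The count for members was 1 (Pdk1) with the methods' t-test, which called 6.23% of all genes, 1 (Pdk1) with Welch's correction, and 0 to 4 with 1 array left out. Signs turned for Hk1 (0.020 with normexp, 0.30 with the mean over all probes), Eno1 (0.050 with that mean), Ldha (-0.061 with that mean, -0.011 with scaling to Gapdh) and Gapdh (-0.0044 when scaled to itself). Scaling to Gapdh shifts all genes of an array alike and sets Gapdh near 0, so those turns follow from its construction. With 1 array left out the ranges were -0.39 to 0.35 for Hk1, -0.25 to 0.069 for Eno1, -0.060 to 0.17 for Gapdh, -0.14 to 0.24 for Ldha and -0.0014 to 0.27 for Aldoa. The mean over all probes averaged the brightest probe with a probe of opposite sign (0.62 for Hk1, 0.19 for Eno1, -0.17 for Ldha). Why probes and arrays differed, and why Hk1 turned with normexp, was not tested. The median over the members ran from 0.03 (without HFD2) to 0.21 (without HFD1). A slide or scan block could not be fitted, since all arrays lay on 1 slide in 1 scan. Normexp used the median brightness of the spots.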
